A study of Danio rerio with 35 samples.

Results

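The genes of heme synthesis were followed in RNA from adult zebrafish hearts. The 10 genes, taken by symbol from the deposited count table, are alas1, alas2, alad, hmbsb, uros, urod, cpox, ppox and fech, which encode enzymes of the pathway, and tspo, which encodes the translocator protein of the outer mitochondrial membrane. All 10 were present among the 14781 genes of the table, and all 10 passed the filter on low counts, which left 10493 genes. Polyadenylated RNA of whole hearts was profiled in 4 libraries of klf1 overexpressing fish and in 4 libraries of wild-type (WT) fish, all adult. Klf1 is a transcription factor known from red blood cell development, and the series title poses the question of whether it induces renewal of heart muscle cells in the adult. The sources used here do not give the promoter, the cells or the duration of the overexpression. They also do not give the strain, the sex, the exact age or whether each library came from separate animals. The p-values therefore set the difference between genotypes against a spread between libraries that may be only technical. The overexpressed gene itself stood at 646 ± 63.6 CPM in klf1 hearts and 216 ± 78.8 CPM in WT hearts (SD, n = 4 each).

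Heme, an iron-bearing porphyrin ring, is the prosthetic group of hemoglobin, of myoglobin in heart muscle and of the cytochromes of the respiratory chain. Its synthesis takes 8 enzymatic steps shared between 2 compartments: the first step lies in the mitochondrion, 4 steps follow in the cytosol, and the closing steps lie in the mitochondrion again, where ferrochelatase inserts iron. The first step, which is the rate-limiting one in most cells, has a housekeeping enzyme (ALAS1) and an erythroid enzyme (ALAS2). Fish with mutations in alas2, urod or fech are known from blood colour and porphyria screens.

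Library totals lay between 9829896 and 13083853 gene counts. Values are CPM, counts scaled to the library total, here adjusted by TMM factors, a scaling that assumes that most genes do not differ. At these depths a count of 3 corresponds to between 0.178 and 0.378 CPM; this floor covers counting error only. CPM does not correct for transcript length, so levels are compared between genotypes and not between genes. Genes were called at an adjusted p under 0.05 in edgeR's quasi-likelihood test over all genes. The scaling matters here: the median gene of all those tested stood at a log2 fold change of 0.03 with TMM factors and of 0.75 when libraries were scaled by their totals alone. With TMM factors 32.2% of tested genes were called higher and 29.4% lower in klf1 hearts, against 65.1% and 13.3% with library totals. Of the libraries, klf1 library 1 and WT library 3 stood furthest from the others of their genotype, with a median Spearman correlation across genes of 0.974 and 0.978.

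Heme synthesis did not move in 1 direction. Of the 10 genes, 4 were called higher in klf1 hearts (alad, hmbsb, urod and cpox) and 4 lower (alas1, alas2, fech and tspo), while uros and ppox were not called. That is 8 of 10 called, where 61.6% of all tested genes were called, and with 10 genes this share is close to the background. Of all tested genes 32.2% were called higher and 29.4% lower, so calls in both directions are not particular to these 10 genes. The median log2 fold change of the 10 genes was -0.23, beside 0.03 for all tested genes. The cytosolic steps had 3 genes higher and 0 lower of 4, with a median of 0.65. The third step is counted here by hmbsb alone. Its paralog hmbsa, given below, was lower (-1.04). The mitochondrial enzymes had 1 higher and 3 lower of 5, with a median of -0.55, which is the value of alas2. With library totals 65.1% of all tested genes were called higher and 13.3% lower. Under that scaling the cytosolic steps had 4 higher and 0 lower (median 1.37). The mitochondrial enzymes had 2 higher and 2 lower with a median whose sign turned (0.17). Without klf1 library 1 and WT library 3 the mitochondrial enzymes had 1 higher and 2 lower (median -0.35). Over all 10, with library totals 6 genes were called higher and 3 lower; alas1, fech and tspo were lower and alad, hmbsb, urod and cpox higher under both scalings. Without klf1 library 1 and WT library 3 the counts were 4 higher and 3 lower, alas2 being the gene that lost its call. Libraries of the genotypes did not overlap for 6 of the 10 genes, where 57% of tested genes showed no overlap.

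**Figure D1:**
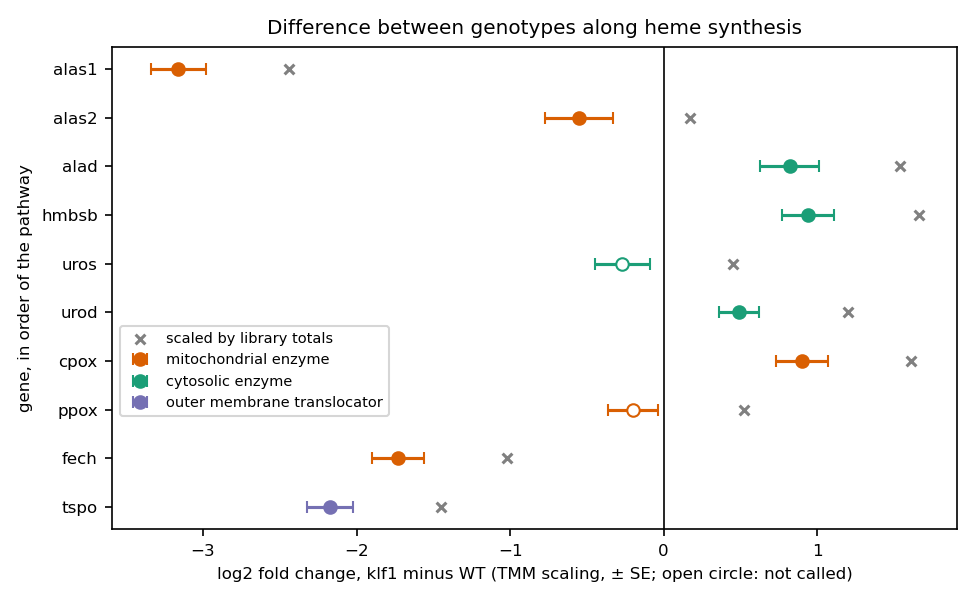
Log2 fold change of each gene (klf1 minus WT, 4 libraries each) in the order of the pathway, from top to bottom, with its standard error; filled circles were called at an adjusted p under 0.05, open circles were not, and crosses give the same difference with libraries scaled by totals alone. alas1, fech and tspo lie left of 0 and alad, hmbsb, urod and cpox right of it under both scalings, while alas2, uros and ppox change side.

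The first step was read in both of its enzymes. alas1, the housekeeping 5-aminolevulinate synthase, had 71.6, 102, 93.5 and 81.5 CPM in the klf1 libraries, against 868, 841, 632 and 767 CPM in the WT libraries. Every klf1 library lay far below every WT library, and the spread within either genotype was small beside the gap. The mean was 87.1 ± 13.2 CPM in klf1 hearts and 777 ± 105 CPM in WT hearts (SD, n = 4 each). This is a log2 fold change of -3.16 ± 0.18 (SE; edgeR adjusted p = 6.85e-08), or 8.92-fold lower in klf1 hearts. Of all tested genes, 1.45% had a lower log2 fold change than alas1. With library totals the log2 fold change of alas1 was -2.44.

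alas2 makes the same product in developing red cells. It had 59.3, 98.7, 114 and 104 CPM in klf1 libraries 1 to 4, against 98.8, 123, 153 and 177 CPM in WT libraries 1 to 4. The ranges overlapped, and klf1 library 1 was the lowest of all. The means were 94.2 ± 24.1 CPM in klf1 hearts and 138 ± 34.1 CPM in WT hearts (SD, n = 4 each), a log2 fold change of -0.55 ± 0.22 (SE; edgeR adjusted p = 0.047). The call is marginal: it was lost without klf1 library 1 (-0.40, edgeR adjusted p = 0.0847), without klf1 library 2 (-0.59, 0.0565) or 4 (-0.61, 0.0539), and without WT library 2 (-0.61, 0.0546), 3 (-0.51, 0.0941) or 4 (-0.42, 0.141). With library totals alas2 was not called and its sign turned (0.17).

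The balance between these enzymes, which does not depend on library scaling, differed strongly. There were 0.828, 0.971, 1.22 and 1.28 alas2 counts per alas1 count in the klf1 libraries, against 0.114, 0.147, 0.241 and 0.231 in the WT libraries. The groups did not overlap. Lengths of the transcripts enter this ratio, so its difference between genotypes can be read and its level cannot. The log2 ratio was 0.08 ± 0.29 in klf1 hearts and -2.52 ± 0.52 in WT hearts (SD, n = 4 each), a difference of 2.60 or 6.06-fold. An exact two-sided permutation test over the 70 assignments of libraries gave p = 0.0286, the smallest that 4 against 4 allows. The gap in alas1 alone, from 102 CPM in its highest klf1 library to 632 CPM in its lowest WT library, is a wide one. As a ratio it exceeds the whole range of alas2, from 59.3 to 177 CPM. The ratio therefore had to part the genotypes, and this p adds nothing beyond the fall of alas1. alas2 itself was not called higher with TMM factors or with library totals.

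The cytosolic steps turn 5-aminolevulinate into coproporphyrinogen. alad, porphobilinogen synthase, had 61.7, 48.4, 46.9 and 36.9 CPM in the klf1 libraries, against 23.2, 25.4, 37.7 and 23.4 CPM in the WT libraries. Only WT library 3 reached into the klf1 range, just above klf1 library 4. The log2 fold change was 0.82 ± 0.19 (SE; edgeR adjusted p = 0.00287), or 1.77-fold. hmbsb, a hydroxymethylbilane synthase that joins porphobilinogen units into a chain, had 19.1, 18.6, 20.6 and 15.9 CPM in the klf1 libraries, against 8.85, 11.6, 11.2 and 7.1 CPM in the WT libraries. The groups did not overlap, and the log2 fold change was 0.94 ± 0.17 (SE; edgeR adjusted p = 0.000404), or 1.92-fold.

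uros, uroporphyrinogen III synthase, closes that chain into a ring. It had 25.5, 31.7, 20.8 and 29.2 CPM in the klf1 libraries, against 24.3, 29.5, 42.2 and 33.4 CPM in the WT libraries. The ranges overlapped, and the log2 fold change of -0.27 ± 0.18 (SE) was not called (edgeR adjusted p = 0.218). With library totals uros was called higher (0.45, edgeR adjusted p = 0.0441), so its direction rests on the scaling. urod, uroporphyrinogen decarboxylase, removes carboxyl groups from the ring. It had 25.1, 20.3, 21.7 and 18.5 CPM in the klf1 libraries, against 13.9, 15.7, 15.1 and 16.3 CPM in the WT libraries. All klf1 libraries lay above all WT libraries, and the log2 fold change was 0.49 ± 0.13 (SE; edgeR adjusted p = 0.00628), or 1.4-fold, the smallest among the 4 genes called higher.

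The closing mitochondrial enzymes went apart from each other. cpox, coproporphyrinogen oxidase of the intermembrane space, had 72.8, 71.2, 62.5 and 50.2 CPM in the klf1 libraries, against 33.3, 42.7, 26.5 and 34.9 CPM in the WT libraries. The groups did not overlap, and the log2 fold change was 0.90 ± 0.17 (SE; edgeR adjusted p = 0.00053), or 1.87-fold. ppox, protoporphyrinogen oxidase of the inner membrane, had 6.05, 7.75, 6.62 and 6.9 CPM in the klf1 libraries, against 8.05, 9.31, 6.75 and 7.23 CPM in the WT libraries. These ranges overlapped and ppox was not called (log2 fold change -0.20 ± 0.16 SE, edgeR adjusted p = 0.306), but it was called higher with library totals (0.52, edgeR adjusted p = 0.0128).

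fech, ferrochelatase, inserts ferrous iron into protoporphyrin. It had 2.43, 2.89, 2 and 2.62 CPM in the klf1 libraries, against 8.39, 7.93, 8.2 and 8.7 CPM in the WT libraries. These rest on 33, 44, 29 and 44 counts in the klf1 libraries and 73, 63, 68 and 71 counts in the WT libraries, the fewest of any of the 10 genes in klf1 hearts. The groups lay well apart. The coefficient of variation over the WT libraries was 3.89%. That is less than counting error alone gives at 63 to 73 counts, so it understates the spread to be reckoned with. The log2 fold change was -1.73 ± 0.17 (SE; edgeR adjusted p = 3.86e-06), or 3.33-fold lower in klf1 hearts. Per fech count there were 29.9, 24.6, 31.2 and 19.2 cpox counts in the klf1 libraries, against 3.97, 5.38, 3.24 and 4.01 in the WT libraries. Within the same compartment the balance of these steps thus differed by 2.62 on the log2 scale (4.61 ± 0.31 in klf1 hearts and 2 ± 0.30 in WT hearts; SD, n = 4 each). This pair was chosen after its values were seen and was not tested.

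tspo binds porphyrins and cholesterol at the outer mitochondrial membrane and is no enzyme of the pathway. It had 28.2, 23.7, 25.5 and 24.1 CPM in the klf1 libraries, against 98.8, 103, 146 and 109 CPM in the WT libraries. The groups did not overlap, and WT library 3 was the highest. The log2 fold change was -2.17 ± 0.15 (SE; edgeR adjusted p = 2.3e-07), or 4.51-fold lower in klf1 hearts. After alas1 this was the next largest fall of the 10 genes, and 4.39% of all tested genes had a lower log2 fold change.

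**Figure D2:**
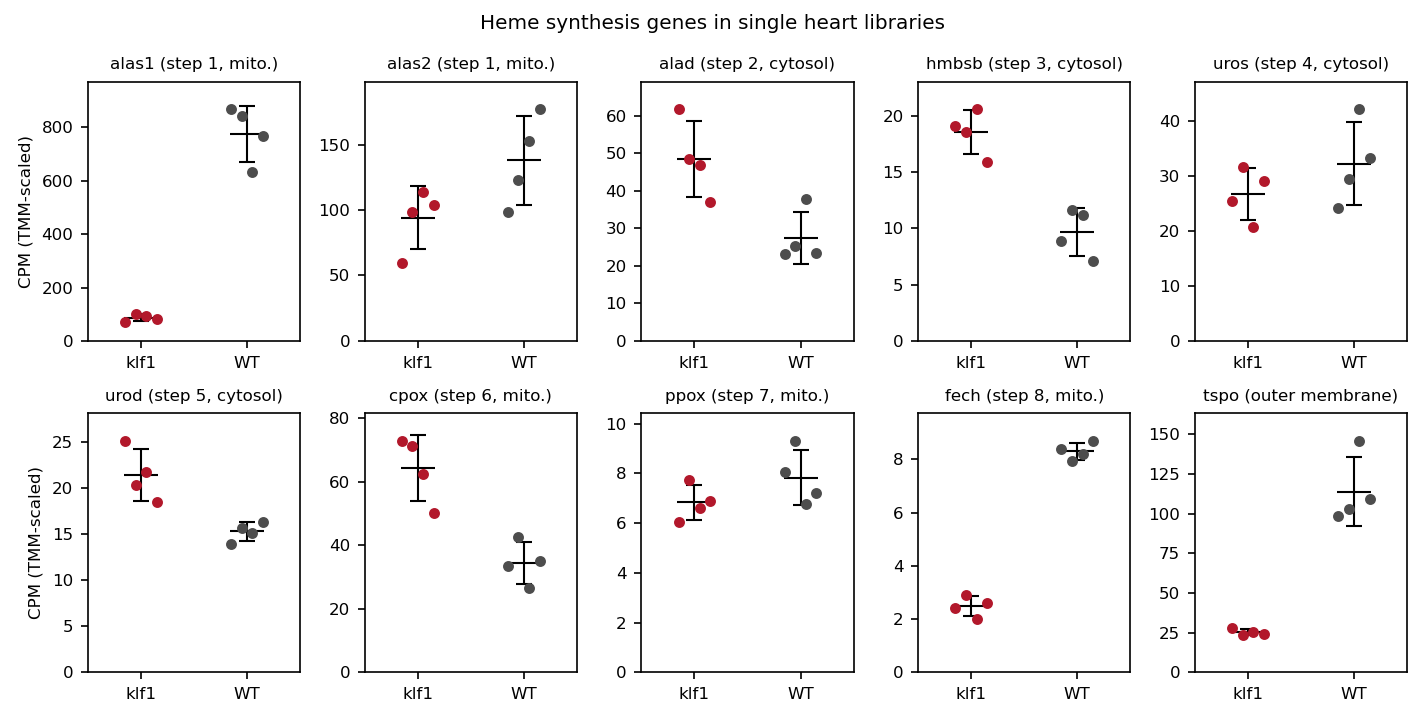
CPM (TMM-scaled, linear axes from 0, each panel with its own scale) of the 10 genes in single libraries, klf1 at left and WT at right; points are libraries 1 to 4 from left to right within a genotype, and bars give the mean ± SD (n = 4). The klf1 libraries of alas1 lie between 71.6 and 102 CPM, below all WT libraries, while those of hmbsb, urod and cpox lie above all WT libraries.

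Taken by compartment within each library, the mitochondrial enzymes other than alas2 had a mean log2 CPM of 4.16 ± 0.13 in klf1 hearts and 5.19 ± 0.16 in WT hearts (SD, n = 4 each). The cytosolic enzymes, with hmbsb but not its paralog hmbsa among them, had 4.74 ± 0.13 in klf1 hearts and 4.24 ± 0.21 in WT hearts. The difference of cytosolic minus mitochondrial means was 0.80, 0.44, 0.59 and 0.50 in the klf1 libraries, against -1.20, -1.07, -0.45 and -1.05 in the WT libraries. The groups did not overlap, and library scaling cancels in this difference except for the prior count. Leaving alas1 out, so that cpox, ppox and fech stood for the mitochondrion, the difference was 1.34 ± 0.13 in klf1 hearts and 0.52 ± 0.32 in WT hearts. The contrast between genotypes was 0.82 on the log2 scale without alas1 and 1.53 with it. Of the genes left, cpox was higher (log2 fold change 0.90), ppox was not called (-0.20) and fech was lower (-1.73). The contrast without alas1 therefore leans on fech, which had only 29 to 44 counts per klf1 library. A contrast without fech was not computed. The cytosolic mean itself was higher by 0.50 in klf1 hearts, and cpox exceeded that. The split by compartment was thus not shared by all mitochondrial enzymes and rests on alas1 and fech. These means are descriptions and were not tested.

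hmbsb has a paralog, hmbsa, which is not among the 10 genes and is given here because the third step turns on both; this was decided after its values were seen. hmbsa had 18.8, 23.2, 13.8 and 15.5 CPM in the klf1 libraries, against 33.8, 37.9, 43.4 and 31.8 CPM in the WT libraries. The groups did not overlap, in the direction opposite to hmbsb (log2 fold change -1.04 ± 0.17 SE, edgeR adjusted p = 0.000221). With library totals hmbsa was not called (-0.32, edgeR adjusted p = 0.0935). With TMM factors hmbsa had a mean of 17.8 ± 4.15 CPM in klf1 hearts and 36.7 ± 5.11 CPM in WT hearts (SD). The means of hmbsb were 18.6 ± 1.95 CPM in klf1 hearts and 9.69 ± 2.1 CPM in WT hearts. The direction of the third step as a whole was not tested, and hmbsb alone does not give it. As a share of the counts of both paralogs, hmbsb took 50.4, 44.4, 59.9 and 50.7% in the klf1 libraries, against 20.8, 23.4, 20.5 and 18.2% in the WT libraries. The exact 95% binomial intervals, which cover counting error only, reached down to 40.5% in klf1 libraries and up to 27.9% in WT libraries. The share does not depend on library scaling. The sources used here do not say how reads common to both paralogs were counted, so both values are uncertain to that extent.

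**Figure D3:**
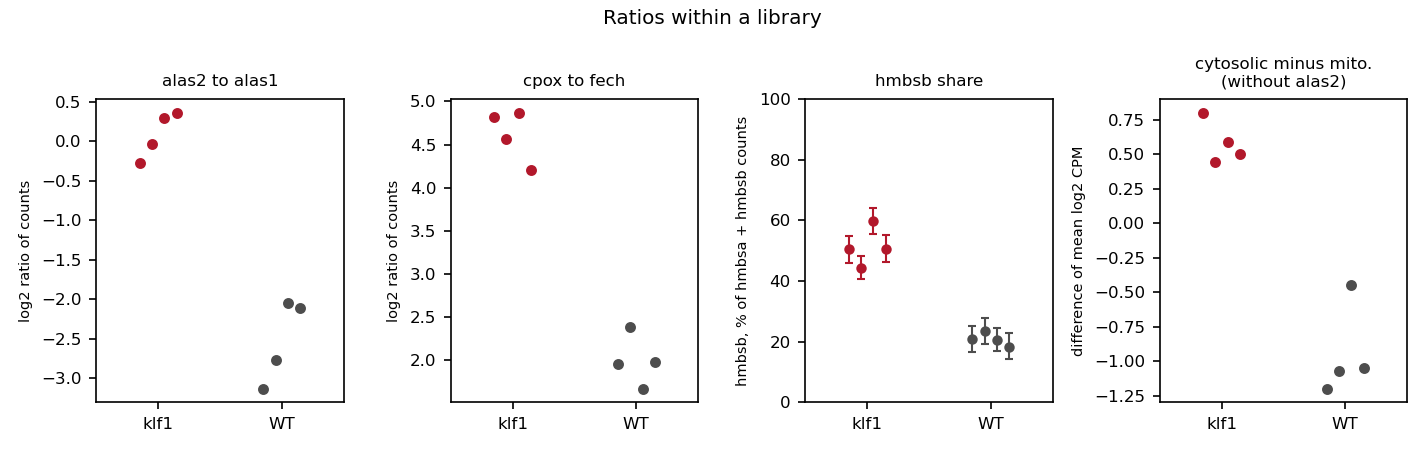
Quantities formed within each library, klf1 at left and WT at right, libraries 1 to 4 from left to right: log2 ratio of alas2 to alas1 counts, log2 ratio of cpox to fech counts, share of hmbsb in the counts of hmbsa and hmbsb (bars: exact 95% binomial intervals), and mean log2 CPM of cytosolic minus mitochondrial enzymes without alas2. In each panel the 4 klf1 libraries lie above the 4 WT libraries, at shares of 44.4% and more against 23.4% and less for hmbsb.

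Within a genotype the 10 genes did not all rise and fall together, but some did. klf1 library 4 stood lowest of its genotype in the 4 genes called higher. It departed from the klf1 mean by -0.37 in alad, -0.21 in hmbsb, -0.20 in urod and -0.34 in cpox (log2 CPM). In WT hearts these genes did not all share a lowest library: alad and urod stood lowest in WT library 1, hmbsb in WT library 4 and cpox in WT library 3. WT library 1 stood lowest of its genotype in 5 of the 10 genes and highest in 1. klf1 library 1 stood lowest of its genotype in alas1 and alas2 (0.27 and 0.62 below the klf1 mean in log2 CPM) and highest in alad (0.37 above). WT library 3 stood lowest of its genotype in alas1 (0.29 below the WT mean) and cpox (0.35 below), and highest in alad (0.49 above), uros (0.41 above) and tspo (0.37 above). The median absolute departure of the 10 genes was 0.26 in WT library 3 and between 0.08 and 0.18 in the other libraries. Of the 10 genes, 6 varied by a larger coefficient of variation in WT than in klf1 hearts.

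**Figure D4:**
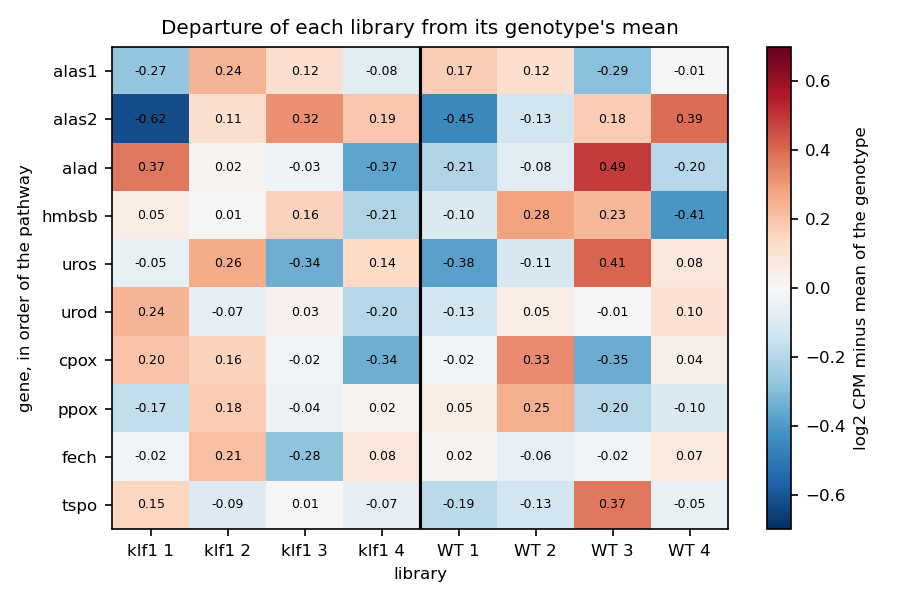
Log2 CPM of each gene in each library minus the mean of that gene over the 4 libraries of the same genotype; red is above and blue below that mean, and the black line parts klf1 (left) from WT (right). alas2 in klf1 library 1 departs furthest, at -0.62, and alad in WT library 3 stands at 0.49.

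alas2 was set beside other transcripts of red cells, since whole hearts hold blood. Of 13 tested erythroid markers, alas2 among them, 0 were called higher and 6 lower, and the median was -0.44. With library totals 4 were higher and 2 lower with a median of 0.27, and without klf1 library 1 and WT library 3 there were 0 higher and 3 lower. The smallest adjusted p among the markers belonged to ank1a, tfr1a and epor, all lower (-4.49, -2 and -0.85). ank1a had 0.597 ± 0.359 CPM in klf1 hearts and 13.4 ± 3.26 CPM in WT hearts (SD), and epor was not called with library totals. hbaa1, an adult alpha globin, had 739 ± 161 CPM in klf1 hearts and 826 ± 280 CPM in WT hearts (SD, n = 4 each) and was not called. The embryonic globins, named after their values were seen, did not pass the filter on low counts. hbbe1.1 had 37, 32, 6 and 44 counts in the klf1 libraries, against 1, 0, 1 and 0 counts in the WT libraries, without overlap between the genotypes. hbae3 and hbbe2 had between 0 and 3 counts in each library, and hbbe3 was listed at 0 in all 8. The 16 other erythroid markers in the table summed to between 1360 and 1960 CPM in klf1 hearts and between 1870 and 2620 CPM in WT hearts. The largest parts of this sum were hbaa1 and sptb, the latter named after its values were seen. sptb had 634 ± 83.1 CPM in klf1 hearts and 863 ± 135 CPM in WT hearts (SD). Across WT libraries 1 to 4, hbaa1 had 547, 629, 1020 and 1110 CPM and sptb had 903, 981, 668 and 899 CPM, so these parts did not run together. The sum also holds ank1a and tfr1a, both lower in klf1 hearts. A ratio to it does not set alas2 against red cell content alone. Whether the listed transcripts came from red cells alone was not tested. Per library, the log2 ratio of alas2 to that sum was -4.52, -4.10, -4.10 and -4.06 in klf1 libraries, against -4.24, -4.10, -3.82 and -3.89 in WT libraries. The groups overlapped, with klf1 library 1 the lowest. In bulk tissue, fewer cells of a type and less RNA per cell cannot be told apart.

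The genes most like alas2 over the 8 libraries were dfna5b, epb41b and tmem175, with a root mean square difference of centred log2 CPM of 0.13, 0.13 and 0.18. epb41b, which encodes the red cell membrane protein 4.1, is itself on the erythroid list; it had 33.4, 47.5, 63.8 and 57.9 CPM in the klf1 libraries, against 60.3, 70.7, 69.7 and 91 CPM in the WT libraries, lowest in klf1 library 1 as alas2 was. For alas1 they were the nuclear receptor gene nr2f6b, the scaffold gene homer2 and hsd11b2, an enzyme that inactivates glucocorticoids, with differences of 0.18, 0.19 and 0.19. nr2f6b had 9.14, 10.2, 10.1 and 9.76 CPM in the klf1 libraries, against 97.9, 77.5, 72.5 and 67.7 CPM in the WT libraries.

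Genes that carry substrates and products of the pathway, or help its enzymes, were lower or not called. Of 15 tested, 0 were higher and 8 lower (median log2 fold change -0.48); with library totals 6 were higher and 4 lower with a median of 0.23. slc25a28, the mitoferrin of most tissues that brings iron into mitochondria, had 54.7 ± 5.47 CPM in klf1 hearts and 187 ± 14.2 CPM in WT hearts (SD, n = 4 each; log2 fold change -1.77). clpxa, whose mammalian counterpart regulates ALAS, changed by -1.62 ± 0.13 (SE), and fam210b, an inner membrane protein linked to iron supply of ferrochelatase in mammals, by -1.23 ± 0.14. pgrmc2, which binds heme, stood at 73.4 ± 8.64 CPM in klf1 hearts and 67.2 ± 9.24 CPM in WT hearts and was not called. The erythroid mitoferrin slc25a37, named after its values were seen, had 7.98 ± 1.36 CPM in klf1 hearts and 6.05 ± 1.88 CPM in WT hearts and was not called. With library totals both pgrmc2 (0.84) and slc25a37 (1.11) were called higher, where the median of all tested genes was 0.75.

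Substrate supply had genes called in both directions. Of 10 tested genes of glycine and succinyl-CoA supply, 2 were higher and 5 lower (median -1.06; with library totals 4 higher and 5 lower). Those higher were shmt1, which makes glycine from serine in the cytosol, at 36 ± 4.94 CPM in klf1 hearts and 5.07 ± 0.897 CPM in WT hearts (SD, n = 4 each; log2 fold change 2.82), and its mitochondrial counterpart shmt2 (0.72 ± 0.21 SE), which was named after its values were seen. Among the lower genes were suclg1, of the tricarboxylic acid cycle, at 110 ± 16.2 CPM in klf1 hearts and 474 ± 28 CPM in WT hearts (-2.10), and dldh, which serves both that cycle and glycine cleavage, at 162 ± 24.7 CPM in klf1 hearts and 774 ± 35.5 CPM in WT hearts (-2.25). amt, of the glycine cleavage system, was not called (-0.14 ± 0.13 SE), nor were gldc of the same system (-0.29 ± 0.27 SE) and the glycine transporter slc6a9 (0.27 ± 0.29 SE), both named after their values were seen. With library totals amt (0.58) and slc6a9 (0.99) were called higher and gldc was not called.

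Iron genes were mostly lower. All 10 tested genes on a list of iron-sulfur cluster assembly were lower, with a median of -1.11. With library totals 6 of 10 were lower and 0 higher, and without klf1 library 1 and WT library 3 there were 9 lower. These counts include lias, which makes lipoic acid and is not itself an assembly gene. nfs1, the cysteine desulfurase, had 36.4 ± 6.47 CPM in klf1 hearts and 118 ± 5.58 CPM in WT hearts (SD, n = 4 each; log2 fold change -1.69), lias, lipoic acid synthase, changed by -1.46 ± 0.13 (SE) and isca1 by -1.66 ± 0.18. Of 15 tested genes of iron uptake, storage and export, 3 were higher and 9 lower (median -1.22; with library totals 5 higher and 8 lower). The transferrin receptor tfr1a, which red cell precursors use in zebrafish and which is also on the erythroid list, had 42.5 ± 8.91 CPM in klf1 hearts and 171 ± 50.1 CPM in WT hearts (-2 on the log2 scale), the iron transporter slc11a2 35.5 ± 6.04 CPM in klf1 hearts and 122 ± 24.9 CPM in WT hearts (-1.77), and the ferritin heavy chain fth1a 787 ± 85.3 CPM in klf1 hearts and 2170 ± 398 CPM in WT hearts (-1.46). pcbp2, an iron chaperone in mammals, was not called (-0.27 ± 0.13 SE), though it was called higher with library totals (0.44).

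Genes that modify, use and break down heme went both ways. The heme a and cytochrome c assembly genes cox10, cox15 and hccsb, all 3 tested, were lower (-1.76, -0.64 and -1.76), cox15 not with library totals (0.08). Of 12 tested genes on a list of heme-binding proteins, 5 were higher and 7 lower (median -1.23, and with library totals 5 higher and 6 lower). These counts include cyb5r3, the reductase of cytochrome b5, which is no heme-binding protein. It was named after its values were seen and was lower (-0.90), but not called with library totals. myoglobin (mb) had 6900 ± 1090 CPM in klf1 hearts and 34900 ± 3130 CPM in WT hearts (SD, n = 4 each; log2 fold change -2.34), and catalase (cat) 65.8 ± 6.79 CPM in klf1 hearts and 228 ± 13.3 CPM in WT hearts (-1.79). Neuroglobin (ngb) had between 2 and 5 counts per klf1 library, at or near the floor, and between 37 and 41 counts per WT library. The 5 higher genes, listed after their values were seen, were cybb and cyba, the cytochrome b subunits of the phagocyte oxidase (1.70 and 1.68), both also on the macrophage list, cygb1 (1.17), cyb5a (1.01) and cyb5b (0.74). Of 4 tested heme breakdown genes, the inducible heme oxygenase hmox1a was higher, at 49 ± 17.2 CPM in klf1 hearts and 22.3 ± 5.84 CPM in WT hearts (1.13 ± 0.26 SE). hmox2a (-1.37 ± 0.14 SE) and the biliverdin reductase blvra (-1.30 ± 0.14 SE) were lower. blvrb was not called, though it was called higher with library totals (0.67). The median of these 4 was -0.67, and 0.04 with library totals, with 2 higher and 2 lower.

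Of 13 tested transcriptional regulators linked to the pathway, 4 were higher and 2 lower, with a median of 0.02 (with library totals 9 higher and 0 lower, median 0.73). Of all tested genes, 32.2% were called higher and 29.4% lower. The 4 higher genes include klf1, the overexpressed gene, whose call follows from the design. mafk, a partner of the heme-sensing Bach factors, was also higher, at 16.6 ± 1.37 CPM in klf1 hearts and 7.42 ± 1.08 CPM in WT hearts (SD, n = 4 each, log2 fold change 1.16). So was nfe2l2a, the oxidative stress factor Nrf2, at 161 ± 8.11 CPM in klf1 hearts and 87.4 ± 13.6 CPM in WT hearts (0.89). nrf1 was not called (0.10 ± 0.13 SE). The erythroid factor gata1a, named after its values were seen, had 9.51 ± 1.87 CPM in klf1 hearts and 9.42 ± 2.91 CPM in WT hearts and was not called. With library totals both nrf1 (0.81) and gata1a (0.73) were called higher, where the median of all tested genes was 0.75. The remaining called genes were also named after their values were seen. nfe2 was higher (0.81 ± 0.18 SE, and 1.52 with library totals). The 2 lower genes were zfpm1 (-1.08 ± 0.22 SE) and bach1a (-0.31 ± 0.12 SE). With library totals zfpm1 was not called (-0.37) and bach1a was called higher (0.41, edgeR adjusted p = 0.0141), so the direction of bach1a rests on the scaling.

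Other cell and organelle markers moved in the same libraries. All 19 tested genes of the respiratory chain and citrate synthase were lower, with a median of -2.38, a sum of 4260 to 6740 CPM in klf1 hearts and 25800 to 30000 CPM in WT hearts. The fall of alas1 (-3.16) exceeded that median and the fall of fech (-1.73) did not reach it. Both lay within the range of that list, from -3.21 (cox7a1) to -1.56 (sdhc), these list genes being named after their values were seen. Of 12 tested cardiomyocyte markers, 0 were higher and 11 lower (median -2.62; with library totals 1 higher and 10 lower), with sums of 29200 to 46700 CPM in klf1 hearts and 223000 to 266000 CPM in WT hearts, so heart muscle transcripts were present in every library. Of 17 tested macrophage and granulocyte markers, 16 were higher and 0 lower (median 1.81), with sums of 1760 to 2230 CPM in klf1 hearts and 425 to 914 CPM in WT hearts. Whether these shifts have a part in the differences of the heme synthesis genes was not tested.

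**Figure D5:**
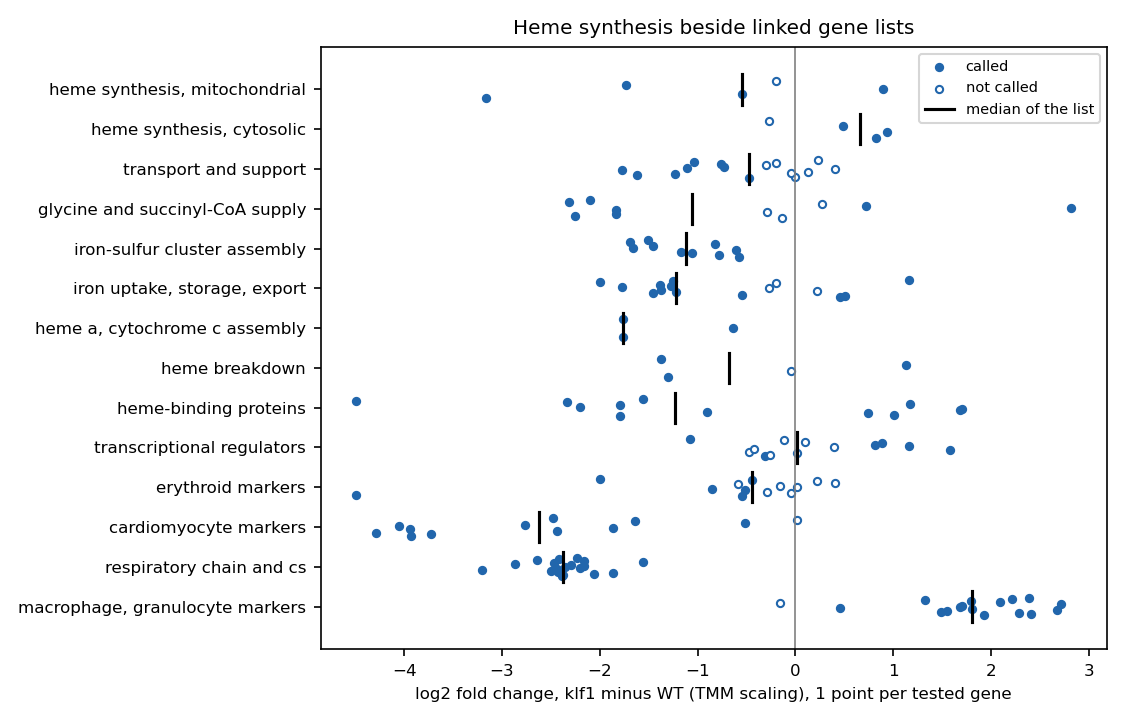
Log2 fold change (klf1 minus WT, TMM scaling) of each tested gene in lists linked to heme synthesis and in marker lists; filled points were called at an adjusted p under 0.05, and vertical bars give the median of a list. Of the cytosolic steps (median 0.65) alad, hmbsb and urod lie right of 0 and uros at -0.27. All tested genes on the lists of iron-sulfur cluster assembly (-1.11) and the respiratory chain (-2.38) lie left of 0.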

How the data were processed

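The authors' raw counts of 8 RNA libraries were used, deposited as whole-number counts per gene with no normalization and no pooling, per the file headers. Per the labels' protocols, the kit for messenger RNA libraries was stranded. The submitters' processing notes name danRer10, Bowtie2 2.2.8 and deepTools 3.1.2 without roles; aligner, counter, annotation and strand setting for RNA are not given in these sources. Each of the 8 single-library files equalled 1 column of the joint table, which supplied gene symbols. The other 27 of 35 samples were not analysed here. All 10 symbols matched RefSeq's gene table (GRCz12tu), used for names only. The symbol cpo, there both a gene of its own and an older synonym of cpox, is a separate row and was not counted as cpox.

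In R 4.3.3, genes were kept by filterByExpr, scaled by TMM and tested with edgeR 4.0.16 (glmQLFit with robust estimation, glmQLFTest, two-sided, genotype as the only term), with Benjamini-Hochberg adjustment over 10493 genes. Fold changes are klf1 minus WT; standard errors come from the fold change and the F statistic and are approximate. Log2 CPM and ratios carry a prior count of 2. No 2 libraries of a genotype agreed within sampling noise (chi-square over its degrees of freedom between 6.71 and 45.7). On simulated counts with 10421 genes at the depths of these libraries, the test recovered 76.6% of changes of 1 and 97.8% of changes of 2 (log2). Only 107 and 91 genes were changed there, in both directions, and 10223 were not. Both genotypes otherwise shared the same mean levels, so the simulation does not test the scaling, on which the real comparison depends. The labels give no batch. Named genes are the 10 genes, per list the 3 with the smallest adjusted p and the most counted uncalled one, and the 3 most like alas1 and alas2; others are marked as chosen later. Genes and lists were chosen with earlier results of these data known. Alternatives covered scaling, filter, prior count, the test (limma-voom of limma 3.58.1, DESeq2 1.42.0) and leaving out libraries.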

Additional observations from a re-analysis of the deposited data

Results flagged for a closer look

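Each genotype's 4 libraries were checked for a library standing far from the other 3, for the 10 genes and for the ratios of alas2 to alas1 and to the other erythroid markers. Of 24 such groups 2 had one, where chance gives about 1 in 20. alad stood at 37.7 CPM in WT library 3, above the 23.2 to 25.4 CPM of the other WT libraries. The log2 ratio of alas2 to the summed other erythroid markers was -4.52 in klf1 library 1, below the -4.10 to -4.06 of the other klf1 libraries.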

How the results depend on the processing

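The calls of alas1, fech and tspo as lower and of alad, hmbsb, urod and cpox as higher held under all 19 alternatives, with log2 fold changes of -3.25 to -2.44, -1.82 to -1.02, -2.24 to -1.45, 0.67 to 1.54, 0.81 to 1.66, 0.38 to 1.2 and 0.71 to 1.61. With library totals alas2 (0.17), uros (0.45) and ppox (0.52) turned sign, and 6834 genes were called higher and 1399 lower, against 3377 and 3084. That setting puts the median gene at 0.75. alas2 kept its call under 8 of 19 alternatives, DESeq2's test and limma-voom among them, and was at -0.53 (edgeR adjusted p = 0.0512 to 0.0567) without a filter, with a stricter filter and with factors computed without erythroid and the 50 most counted genes. Leaving out klf1 library 1 and WT library 3 together, chosen after seeing the data, gave 2.87 for the log2 ratio of alas2 to alas1, with an exact permutation p of 0.1, the smallest that 3 against 3 allows. Leaving out single libraries gave 2.39 to 2.75. The titles number the libraries through both genotypes, but the file headers number them 1 to 4 within each, and nothing ties a number to a shared animal, batch or day. Same-numbered libraries did not depart from their genotype means together (correlations across genes of -0.08, 0.08, -0.19 and 0.09). The largest correlation of any pair across genotypes was 0.34, between klf1 library 1 and WT library 3. What these 2 libraries share was not tested. With that number as a replicate block, added after seeing the data, 6111 genes were called, against 6461, and the calls of the 10 genes were the same (alas2 edgeR adjusted p = 0.00882). Depth limits fech and ppox most.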

Other observations

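Markers of other cells were also read. Of 9 tested endothelial markers 1 was higher and 5 lower (median -0.38), but with library totals 4 were higher and 1 lower (median 0.33). Of 11 of fibroblasts, epicardium and smooth muscle 6 were higher and 0 lower (median 1.01), and 10 higher and 0 lower with library totals. Of 4 thrombocyte markers 1 was higher and 1 lower (median -0.30), against 1 and 0 with library totals (median 0.40). All 18 genes of a cell cycle list were higher, with a median log2 fold change of 4.39 and sums of 1350 to 1850 CPM in klf1 hearts and 100 to 146 CPM in WT hearts. RefSeq lists the symbol cpo as a gene of its own and also as an older name of cpox. The row cpo was therefore named, after its values were seen, and was not read as coproporphyrinogen oxidase. It had 2479, 2773, 1990 and 2605 counts in the klf1 libraries, against 2, 1, 5 and 5 counts in the WT libraries. The row cpox had 988, 1084, 906 and 843 counts in the klf1 libraries, against 290, 339, 220 and 285 counts in the WT libraries.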
